A study of Mus musculus with 6 samples.

Results

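The genes described here encode the proteins of the mitochondrial ribosome. They were taken as every gene whose symbol, found through the RefSeq accession of its array probes, is Mrpl or Mrps followed by a number, with pseudogenes left out. The array held 78 such genes, measured by 100 probes, among 20972 gene symbols. Of the 78, 77 were kept for testing among 20870 genes and transcripts, and each of the 77 was well above background on all 6 arrays. Mrpl21 was well above background on no array and is not described further.

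The mitochondrial ribosome translates the few messages that mitochondrial DNA encodes, which are core subunits of the respiratory chain and of the ATP synthase. Its RNA is made in the organelle, whereas its proteins are encoded in the nucleus, made in the cytosol and imported. Some of these proteins descend from the bacterial ribosome and others are found in mitochondrial ribosomes alone. The names follow the subunit in which a protein was first placed (Mrpl large, Mrps small), and a few names are misplaced: Mrps18a and Mrps30 sit in the large subunit, and Mrps36 is a component of the 2-oxoglutarate dehydrogenase complex. Heart and oxidative skeletal muscle are rich in mitochondria.

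Total RNA of mouse muscle, labelled with the dye Cy3, was hybridised to 6 arrays in 3 groups of 2. MDX_JJ101 were MDX mice given JJ101, described in the labels as bioceramic water, MDX_tap were MDX mice given tap water, and B10_tap were C57BL/10 mice given tap water. Each group had drunk its water for 10 months. MDX mice carry a mutation in Dmd, the dystrophin gene, from birth and in every tissue, and C57BL/10 is the wild-type strain. The labels used here give neither the number of mice nor their ages. Nothing in them ties the 2 replicates of a group to different mice, and the p-values then measure the spread between these arrays, which may be technical. Levels are log2 processed signals minus the 75th percentile of the array, and differences are log2 values.

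The share of 59305 spots well above background was between 42.5% and 43.8% in MDX_JJ101, 48.1% and 49.6% in MDX_tap, and 51.4% and 51.6% in B10_tap. Dmd had levels of -1.50 and -1.74 in MDX_JJ101, -0.84 and -0.27 in MDX_tap, and 1.06 and 1.06 in B10_tap. The tissue label, gastrocnemius, was checked against marker genes. Of 9 heart muscle markers, among them Myh6, Nppa and Gata4, 8 were well above background on all 6 arrays, whereas 4 of 10 skeletal muscle markers were so and Mylpf was so on none. The fast skeletal myosin genes Myh4, Myh1 and Myh2 and the actinin gene Actn3 were well above background on no MDX_JJ101 array but on both arrays of each other group. The markers therefore go against the label, and the samples are called muscle here. The 6 arrays lay on 1 slide, with MDX_JJ101 in row 2 (columns 3 and 4), MDX_tap in row 1 (columns 3 and 4) and B10_tap in row 1 (columns 1 and 2), so that slide row and JJ101 cannot be told apart.

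Between MDX_JJ101 and MDX_tap, dystrophic mice that differ in water and whose arrays differ in slide row, most mitochondrial ribosomal protein transcripts were higher in MDX_JJ101. By limma with Benjamini-Hochberg adjustment over all genes, at an adjusted p under 0.05, 46 of the 77 genes rose and 0 fell, and at an unadjusted p under 0.05 these counts were 57 and 0. Of all genes tested 36.1% passed, 19.9% higher and 16.1% lower, and 26.3% were higher and 23.4% lower at an unadjusted p under 0.05. The median difference of the 77 genes was 0.49 (quartiles 0.28 and 0.64), against 0.00082 over all genes. Of the 77 differences 73 were positive, against 50% of all genes. Both MDX_JJ101 arrays lay above both MDX_tap arrays for 70 genes and below them for 2, against 37.3% and 35.4% of all genes. In bulk RNA, a different number of cells of a type and a different amount of RNA per cell cannot be told apart.

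The shift was seen on both array pairs that shared a slide column. In column 3 the median difference was 0.51, with 75 of 77 genes positive, and in column 4 it was 0.41, with 71 of 77 positive. With slide column as a block the median stayed at 0.49, but 0 of 77 genes passed (44 at an unadjusted p under 0.05). That fit called 0 of all genes tested, so the loss of calls was not particular to the 77. A median of 0.53 remained after MDX_tap replicate 2 was dropped, and one of 0.45 after replicate 1 of that group was dropped. Scaling to the spike-in controls lowered the median of all genes to -0.43 and that of the 77 genes to 0.058. Of the 77 genes 0 then passed, against 0.388% of all genes called higher, so the rise is one relative to the other transcripts on the array. With normexp and with the authors' table the median was 0.275 in both, and 62 of 77 differences were positive.

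**Figure D1:**
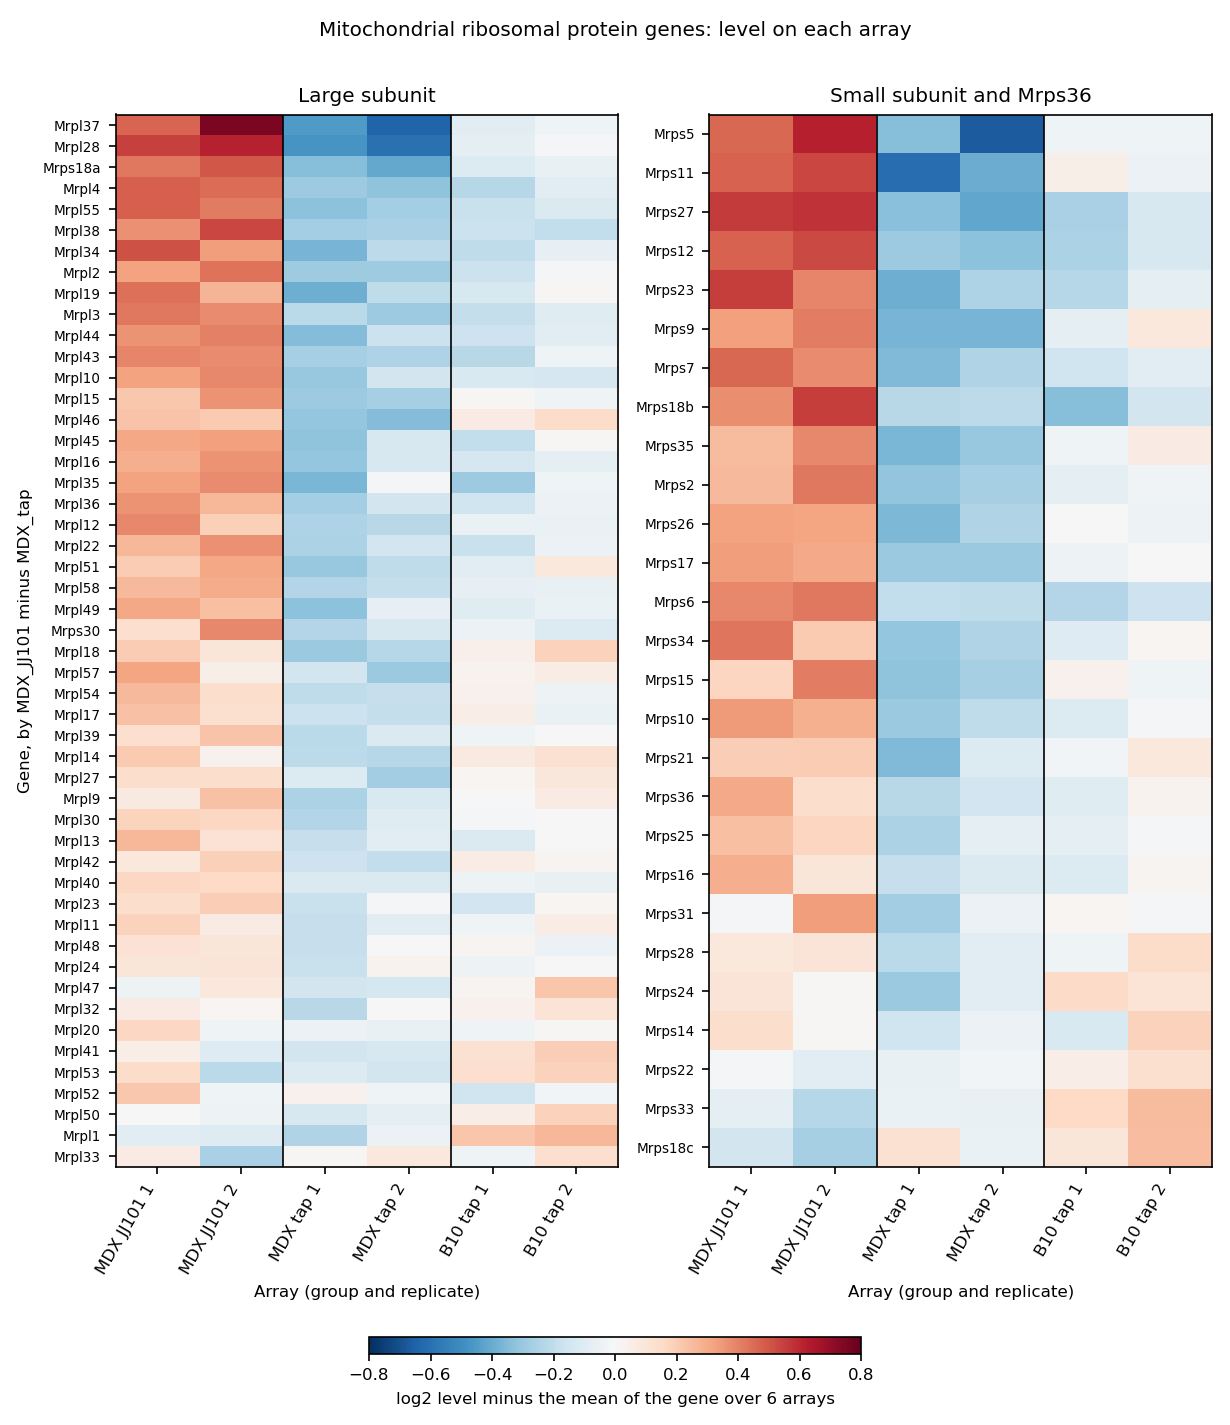
Level of each of the 77 genes (rows) on each of the 6 arrays (columns), as the log2 level minus the mean of that gene over the 6 arrays. Large subunit genes are on the left and small subunit genes with Mrps36 on the right, ordered by MDX_JJ101 minus MDX_tap. Most rows are red (above the mean) in MDX_JJ101 and blue (below it) in MDX_tap, with B10_tap between them, and the lowest rows, such as Mrps18c and Mrpl33, do not follow this order.

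Genes of the small subunit, which binds the message and decodes it, held 17 that rose among 26, with a median difference of 0.60. Mrps5, the counterpart of a bacterial protein at the site where the message enters, had levels of 1.06 and 1.22 in MDX_JJ101, against 0.26 and -0.07 in MDX_tap. Its difference was 1.05 (SE 0.14, adjusted p = 0.013), and the 2 groups did not overlap. Mrps11, which descends from a bacterial protein of the subunit's platform, had 2.08 and 2.14 in MDX_JJ101, against 0.99 and 1.21 in MDX_tap. That is a difference of 1.01 (SE 0.12, adjusted p = 0.0128), again without overlap. Mrps27, a pentatricopeptide repeat protein that bacteria lack, had 2.17 and 2.19 in MDX_JJ101, against 1.28 and 1.19 in MDX_tap. It rose by 0.94 (SE 0.10, adjusted p = 0.0128), with replicates that lay close together in both groups. Mrps12, the decoding-centre protein, had 5.44 and 5.50 in MDX_JJ101, against 4.68 and 4.64 in MDX_tap, and rose by 0.81 (SE 0.10, adjusted p = 0.0128). For Mrps23, a mitochondrion-specific protein, the levels were 7.41 and 7.25 in MDX_JJ101, against 6.47 and 6.61 in MDX_tap, a difference of 0.79 (SE 0.12, adjusted p = 0.0139). In both of these genes the lower MDX_JJ101 array was above the higher MDX_tap array.

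Of 50 large subunit genes, whose proteins form the part of the ribosome that joins amino acids, 28 rose, with a median difference of 0.43. Mrpl37, a mitochondrion-specific protein, had the largest difference of the 77 genes, with levels of 2.37 and 2.66 in MDX_JJ101, against 1.45 and 1.26 in MDX_tap. It rose by 1.16 (SE 0.14, 2.24-fold, adjusted p = 0.0128). Mrpl28, a counterpart of a bacterial large subunit protein, had 4.76 and 4.83 in MDX_JJ101, against 3.74 and 3.62 in MDX_tap. Here the difference was 1.12 (SE 0.10, 2.17-fold, adjusted p = 0.0125), and neither gene's arrays overlapped between the groups. Mrpl12, the stalk protein that contacts elongation factors, had 6.94 and 6.74 in MDX_JJ101, against 6.31 and 6.33 in MDX_tap, and rose by 0.52 (SE 0.11, adjusted p = 0.0226). Mrpl58, a peptidyl-tRNA hydrolase built into the ribosome, had 5.87 and 5.91 in MDX_JJ101, against 5.38 and 5.42 in MDX_tap, and rose by 0.49 (SE 0.09, adjusted p = 0.0182). These smaller rises were still larger than the gap between replicates of either group. Mrps30, a large subunit protein despite its name, had 3.81 and 4.06 in MDX_JJ101, against 3.45 and 3.55 in MDX_tap, and rose by 0.44 (SE 0.12, adjusted p = 0.0462). Mrps36, the dehydrogenase component, had 5.73 and 5.57 in MDX_JJ101, against 5.21 and 5.28 in MDX_tap, and rose by 0.41 (SE 0.11, adjusted p = 0.0409).

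Mouse has 3 genes that descend from the single bacterial S18 gene, and 2 of them passed the test. Mrps18a, whose product lies in the large subunit, had levels of 5.08 and 5.15 in MDX_JJ101, against 4.32 and 4.24 in MDX_tap, and rose by 0.83 (SE 0.10, adjusted p = 0.0128). Mrps18b, in the small subunit, had 4.93 and 5.11 in MDX_JJ101, against 4.33 and 4.35 in MDX_tap, and rose by 0.68 (SE 0.12, adjusted p = 0.0166). Mrps18c, the paralog that takes the place of bacterial S18, had 4.46 and 4.34 in MDX_JJ101, against 4.73 and 4.55 in MDX_tap. Its arrays did not overlap either, in the opposite direction, and its difference was -0.24 (SE 0.12, adjusted p = 0.168). Differences between paralogs were not tested.

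Of the 31 genes that did not pass, 4 had a negative difference, and Mrps18c had the lowest. The others were Mrpl33, a counterpart of a bacterial large subunit protein, at -0.14 (SE 0.15), Mrps33 at -0.10 (SE 0.11) and Mrps22 at -0.01 (SE 0.10). Mrps33 and Mrps22 are mitochondrion-specific small subunit proteins. Mrpl33 had 7.52 and 7.20 in MDX_JJ101, against 7.46 and 7.54 in MDX_tap, so its groups overlapped. Mrps22 overlapped as well, with 2.65 and 2.58 in MDX_JJ101, against 2.61 and 2.64 in MDX_tap. With the normexp background correction and with the authors' table, Mrps18c fell (-0.46 and -0.48) and Mrps33 fell (-0.31 and -0.34). The threshold separated close values: Mrpl39, at 0.34, had an adjusted p of 0.0484 and Mrpl30, also at 0.34, one of 0.0514.

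**Figure D2:**
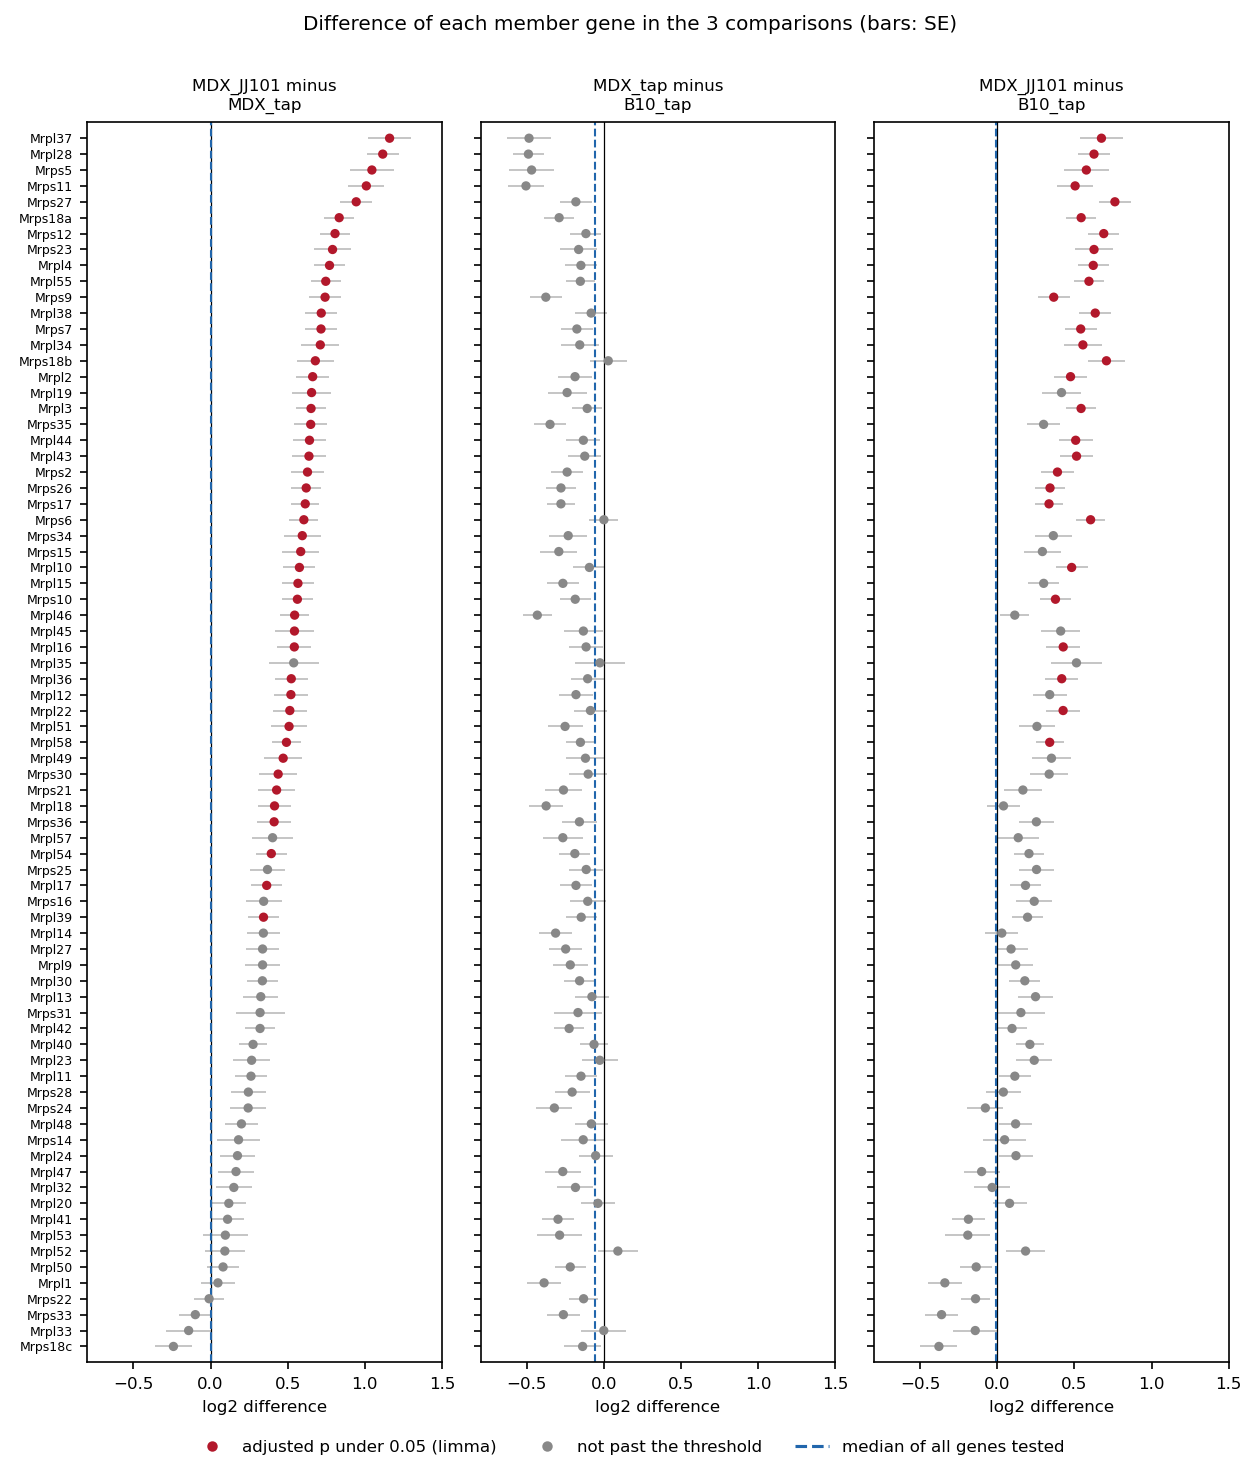
Fitted log2 difference of each of the 77 genes (rows) with its SE (bars) in the 3 comparisons (panels, left to right), in the same row order throughout. Red points passed an adjusted p of 0.05 by limma, grey points did not, and the dashed line is the median of all genes tested. In the left panel 46 points are red and lie right of the line, in the middle panel 0 are red, and in the right panel 29 are red.

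Signal height was related to the difference over the whole array, and the 77 genes are bright. When all tested genes were ranked by mean level and cut into 4 bins of equal size, 67 of the 77 lay in the highest bin and 10 in the next. In the highest bin 38 of the 67 (56.7%) rose with a median of 0.41, against 35.1% and 0.23 for all genes there. In the next bin 8 of the 10 rose with a median of 0.69, against 26.3% and 0.12. The lower bins held none of the 77 and had medians of -0.07 and -0.37 over all genes.

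Markers of several cell types differed in the same comparison, and their part in the shift was not tested. Of all genes 19.9% were called higher and 16.1% lower, and in the bin of highest mean level 35.1% and 9.79%. The summed level of the heart markers was 12.26 and 12.22 in MDX_JJ101, against 11.92 and 12.01 in MDX_tap. Of 8 tested 3 rose (37.5%), close to the share in that bin. They were Nkx2-5, Tbx5 and Gata4, transcription factors of heart muscle. The summed level of the skeletal markers was 8.01 and 8.11 in MDX_JJ101, against 7.21 and 7.24 in MDX_tap. A sum follows the brightest genes of a list, and the median difference of the skeletal markers was -3.33. Ckm, the muscle creatine kinase, was the 1 skeletal marker that rose (1.37), and 6 of 9 tested fell, Myh4 by at least 46.3-fold. All 6 macrophage markers tested fell (median -1.30), with summed levels of 5.63 and 5.30 in MDX_JJ101, against 6.52 and 6.11 in MDX_tap. Of 6 fibroblast and matrix genes 1 fell (Pdgfra, median of the list -0.76) and of 4 endothelial genes 3 fell (median -0.60). Summed fibroblast levels were 7.29 and 6.43 in MDX_JJ101, against 7.54 and 7.61 in MDX_tap, and summed endothelial levels were 4.58 and 4.38 in MDX_JJ101, against 5.13 and 5.05 in MDX_tap.

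Promoter sequences were set beside these values because so many of the genes moved one way. RefSeq windows of build GRCm38.p6, from 250 bases before to 50 after the gene's start, existed for 68 of the 77 genes and for 27025 genes in all. They were searched on both strands for the letters of motifs known from nuclear genes of mitochondrial proteins, none of which contains another: NRF1 (GCGCA, any base, GCGC), the ETS motif of GABP (CCGGAAG) and YY1 (AAGATGGCG), with the E-box (CACGTG) beside them. NRF1 letters were in 19.1% of the 68 windows and in 5.19% of all windows, ETS letters in 36.8% and 9.93%, and YY1 letters in 11.8% and 1.64%. At least 1 of these 3 was in 58.8% of the 68 and in 15.1% of all, whereas the E-box was in 7.35% and 8.09%. Among the genes that rose and had a window (39), the shares were 20.5% for NRF1, 38.5% for ETS and 12.8% for YY1, and among the 29 that did not pass they were 17.2%, 34.5% and 10.3%. The shares of both sets lay close together and their difference was not tested. A match is a description of the sequence and no evidence of binding.

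The stretches below run from 150 bases before the start to 30 after it for 6 genes, chosen to show genes that rose with and without these letters and the S18 paralog that did not rise; capitals mark ETS or YY1 letters. Mrps11 is at chr7:78782981-78783160 (plus strand), Mrps27 at chr13:99344636-99344815 (plus), Mrps12 at chr7:28741792-28741971 (minus), Mrps18a at chr17:46110854-46111033 (plus), Mrpl28 at chr17:26123353-26123532 (plus) and Mrps18c at chr5:100798609-100798788 (plus).
Mrps11: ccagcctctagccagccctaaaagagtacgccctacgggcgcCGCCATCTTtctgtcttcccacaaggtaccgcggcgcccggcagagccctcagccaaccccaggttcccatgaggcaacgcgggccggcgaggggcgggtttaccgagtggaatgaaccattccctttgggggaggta
Mrps27: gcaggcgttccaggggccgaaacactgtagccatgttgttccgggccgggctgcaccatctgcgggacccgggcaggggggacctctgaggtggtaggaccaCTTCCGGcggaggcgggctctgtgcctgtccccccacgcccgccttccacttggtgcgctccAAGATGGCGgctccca
Mrps12: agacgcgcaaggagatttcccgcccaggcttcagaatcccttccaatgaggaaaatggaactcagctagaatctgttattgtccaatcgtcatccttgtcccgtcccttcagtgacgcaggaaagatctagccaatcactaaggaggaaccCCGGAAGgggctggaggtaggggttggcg
Mrps18a: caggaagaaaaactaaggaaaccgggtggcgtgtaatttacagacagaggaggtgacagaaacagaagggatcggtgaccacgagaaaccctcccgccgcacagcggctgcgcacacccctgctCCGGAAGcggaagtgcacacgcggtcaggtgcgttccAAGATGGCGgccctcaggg
Mrpl28: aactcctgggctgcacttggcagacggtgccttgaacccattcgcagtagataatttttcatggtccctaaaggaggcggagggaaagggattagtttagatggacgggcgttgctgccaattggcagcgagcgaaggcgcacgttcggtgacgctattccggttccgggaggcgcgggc
Mrps18c: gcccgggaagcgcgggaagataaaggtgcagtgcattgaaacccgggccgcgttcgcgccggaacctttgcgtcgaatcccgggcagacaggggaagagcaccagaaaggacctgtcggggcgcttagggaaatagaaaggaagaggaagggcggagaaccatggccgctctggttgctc
Mrps27 and Mrps18a carry both kinds of letters, with the YY1 letters just after the start, Mrps11 carries YY1 letters and Mrps12 ETS letters. Mrpl28, which rose by more than any of these 4, and Mrps18c, which did not rise, carry neither. In stretches of the same length not printed here, Mrpl37 and Mrps18b, which rose, carry neither. That of Mrpl33, which did not pass, carries ETS letters.

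Many of the genes lie head to head with another gene, so that a single stretch of DNA precedes both. In the RefSeq windows 22 of 68 (32.4%) had a gene starting on the opposite strand within 500 bases upstream, against 10.9% of all genes. The partners named next were chosen after their values were seen. Mrps11 and Mrpl46, a mitochondrion-specific large subunit gene, start 42 bases apart and both rose, by 1.01 and 0.55. Sars2, the mitochondrial seryl-tRNA synthetase gene, starts 147 bases from Mrps12 and rose by 1.05 (SE 0.14), and Twnk, the mitochondrial DNA helicase gene, starts 116 bases from Mrpl43 and rose by 0.98 (SE 0.11), beside 0.64 for Mrpl43. Ptcd2, 108 bases from Mrps27, rose by 0.81 (SE 0.12). Of 18 tested partners that are not among the 77, 9 rose and 1 fell, with a median of 0.50. Of all genes 19.9% were called higher and 16.1% lower. Beside Sars2, Twnk and Ptcd2, the partners that rose were Klc4 (0.97), Tmem63b (0.96), Cyb5rl (0.89), Tcp1 (0.77), Hira (0.69) and 2610507I01Rik (0.58). Tmem63b and Hira lie beside Mrpl14 and Mrpl40, which did not pass. Zfp661, the partner of Mrps5, did not pass (0.21). The partner that fell was Mitd1 (-1.02, SE 0.11, adjusted p = 0.0128), which starts 66 bases from Mrpl30.

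**Figure D3:**
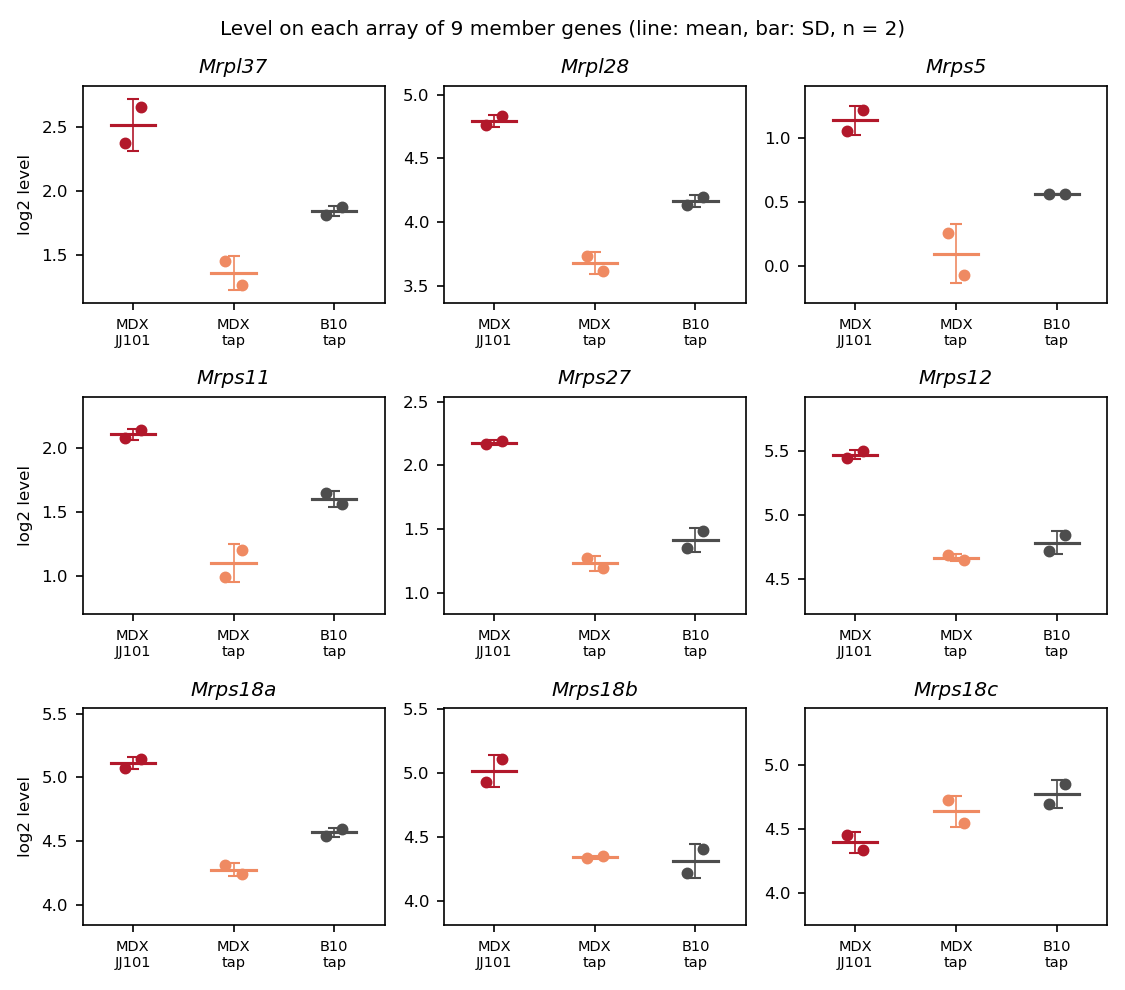
Log2 level on each array (points) of 9 genes, with the mean of each group (line) and its SD (bar, n = 2), for MDX_JJ101, MDX_tap and B10_tap from left to right; each panel has its own vertical range. In 8 panels both MDX_JJ101 points lie above the points of both other groups, and in the panel of Mrps18c they lie below them.

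Between MDX_tap and B10_tap, the comparison of dystrophic with wild-type mice on the same water, mitochondrial ribosomal protein transcripts were slightly lower in MDX_tap and no gene passed. By limma 0 of 77 were called higher and 0 lower, against 0.024% of all genes called, and at an unadjusted p under 0.05 the counts were 0 higher and 16 lower, against 8.64% and 12.4% of all genes. The median difference was -0.18, against -0.06 over all genes. Of the 77 differences 75 were negative, whereas 41.6% of all genes had a positive one. Both MDX_tap arrays lay below both B10_tap arrays for 60 genes and above them for 0, against 37% and 24.4% of all genes. MDX_tap and B10_tap lay in different slide columns, so that column and genotype cannot be told apart.

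The lowest p of the 77 belonged to Mrpl28, with levels of 3.74 and 3.62 in MDX_tap, against 4.13 and 4.20 in B10_tap, a difference of -0.49 (SE 0.10, adjusted p = 0.117). Mrps11 had 0.99 and 1.21 in MDX_tap, against 1.65 and 1.56 in B10_tap, a difference of -0.51 (SE 0.12, adjusted p = 0.131). Its head-to-head neighbour Mrpl46 had 2.60 and 2.57 in MDX_tap, against 2.97 and 3.06 in B10_tap, a difference of -0.43 (SE 0.09, adjusted p = 0.124). None of these 3 genes had overlapping arrays. Mrps9, a counterpart of a bacterial small subunit protein, differed by -0.38 (SE 0.11) and Mrpl1, the protein of the movable L1 stalk, by -0.39 (SE 0.11). Mrps18a differed by -0.29 (SE 0.10), Mrpl12 by -0.18, Mrps36 by -0.16, Mrpl58 by -0.15, Mrps18c by -0.14, Mrps12 by -0.12 and Mrps30 by -0.10, none past the threshold. The 2 positive differences were those of Mrpl52 (0.09, SE 0.13), a mitochondrion-specific protein, and Mrps18b (0.03, SE 0.12).

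Macrophage and matrix markers differed most among the marker lists here, and their part was not tested. At an unadjusted p under 0.05 by limma, 8.64% of all genes were higher and 12.4% lower. Summed macrophage levels were 6.52 and 6.11 in MDX_tap, against 5.61 and 5.54 in B10_tap (median difference 1.32, 0 of 6 past the threshold and 5 higher at an unadjusted p under 0.05). Summed fibroblast levels were 7.54 and 7.61 in MDX_tap, against 6.30 and 6.17 in B10_tap (median 1.42, 0 of 6 past the threshold, 6 higher unadjusted). Heart sums were 11.92 and 12.01 in MDX_tap, against 12.05 and 12.03 in B10_tap.

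Between MDX_JJ101 and B10_tap, which differ in both genotype and water and also in slide row and column, 29 of the 77 genes were higher in MDX_JJ101 and 0 lower (limma, adjusted p under 0.05), and 38 and 3 at an unadjusted p under 0.05. Of all genes 33.6% passed, 16.2% higher and 17.4% lower, and at an unadjusted p under 0.05 the shares were 23.6% and 24.3%. The median difference was 0.29, against -0.0065 over all genes, and 66 differences were positive, against 49.5%. Among genes of like level the gap was smaller. In the bin of highest mean level 22 of the 67 (32.8%) were higher with a median of 0.25, against 29.1% and 0.20 for all genes there. In the next bin 7 of the 10 were higher with a median of 0.51, against 21.7% and 0.14. Both MDX_JJ101 arrays lay above both B10_tap arrays for 58 genes and below them for 7, against 37.9% and 37.3%. This comparison uses the same MDX_JJ101 arrays as the first and the same B10_tap arrays as the second, and is not independent of them. The counts depended on the setting. Normexp gave a median of 0.078 with 49 positive differences, 18 genes higher and 6 lower, and the authors' table gave 0.080 with 48 positive, 16 higher and 5 lower. Of all genes 13.8% and 13.3% were higher in these settings, in that order. Spike-in scaling turned the median to -0.17 with 0 of the 77 genes higher, against 0.503% of all genes. The median was 0.25 without B10_tap replicate 1 and 0.32 without B10_tap replicate 2.

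Mrps27 had 2.17 and 2.19 in MDX_JJ101, against 1.35 and 1.48 in B10_tap, and was higher by 0.76 (SE 0.10, adjusted p = 0.0118). Mrps18b had 4.93 and 5.11 in MDX_JJ101, against 4.21 and 4.41 in B10_tap, a rise of 0.71 (SE 0.12, adjusted p = 0.0166). Mrps12 had 5.44 and 5.50 in MDX_JJ101, against 4.72 and 4.84 in B10_tap, a rise of 0.69 (SE 0.10, adjusted p = 0.0129). None of these overlapped, and 5 further genes stood close to them: Mrpl37 at 0.68, Mrpl38 (mitochondrion-specific) at 0.63, Mrps23 at 0.63, Mrpl28 at 0.63 and Mrpl4, a counterpart of a bacterial protein that lines the exit tunnel, at 0.62. Mrps18a rose by 0.54 and Mrpl58 by 0.34, whereas Mrpl12 (0.34, adjusted p = 0.0644), Mrps30 (0.34, adjusted p = 0.0915) and Mrps36 (0.25, adjusted p = 0.133) did not pass.

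Markers of cell types differed in this comparison too, and their part was not tested. Of all genes 16.2% were called higher and 17.4% lower, and 23.6% and 24.3% at an unadjusted p under 0.05. Of 8 heart markers 4 were higher and 0 lower (median 0.54), with summed levels of 12.26 and 12.22 in MDX_JJ101, against 12.05 and 12.03 in B10_tap. Of 9 skeletal markers 2 were higher and 7 lower (median -3.67), and the sums were 8.01 and 8.11 in MDX_JJ101, against 7.27 and 7.23 in B10_tap. Each of the 4 endothelial markers was lower (median -0.77), with sums of 4.58 and 4.38 in MDX_JJ101, against 5.31 and 5.27 in B10_tap. Of 6 fibroblast and matrix genes 1 was higher (median 0.71; sums 7.29 and 6.43 in MDX_JJ101, against 6.30 and 6.17 in B10_tap). Of 6 macrophage markers 0 passed by limma (0 higher and 1 lower at an unadjusted p under 0.05; sums 5.63 and 5.30 in MDX_JJ101, against 5.61 and 5.54 in B10_tap).

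At the low end, Mrps18c had 4.46 and 4.34 in MDX_JJ101, against 4.70 and 4.85 in B10_tap, a difference of -0.38 (SE 0.12, adjusted p = 0.0631). Mrps33 had 5.98 and 5.83 in MDX_JJ101, against 6.22 and 6.31 in B10_tap, a difference of -0.36 (SE 0.11, adjusted p = 0.0508). Mrpl1 had 1.03 and 1.01 in MDX_JJ101, against 1.34 and 1.38 in B10_tap, a difference of -0.34 (SE 0.11, adjusted p = 0.0638). These 3 lay below B10_tap on both arrays and missed the threshold, Mrps33 with its brighter probe. Mrps33 passed it under 6 alternatives, with adjusted p between 0.00819 (normexp) and 0.0496 (without MDX_JJ101 replicate 1). Mrpl41, a mitochondrion-specific protein, was at -0.19 and Mrps22 at -0.14.

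Over the arrays, the median level of the 77 genes was 4.93 and 4.95 in MDX_JJ101, 4.40 and 4.52 in MDX_tap, and 4.61 and 4.74 in B10_tap. MDX_JJ101 was thus highest and MDX_tap lowest, and the 3 groups did not overlap in this median. The SD over the 77 genes of the difference between replicates was 0.14 in MDX_JJ101, 0.12 in MDX_tap and 0.08 in B10_tap, against 0.48, 0.37 and 0.29 over all genes. The 77 genes are bright, and this spread was not compared with that of genes of like level.

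The steps around the ribosome's proteins were followed in lists of other genes. In MDX_JJ101 against MDX_tap, 19.9% of all genes were called higher and 16.1% lower. In the bin of highest mean level these shares were 35.1% and 9.79%. Of 5 mitochondrial ribosome proteins named otherwise, 2 rose in MDX_JJ101 against MDX_tap: Dap3, a GTP-binding small subunit protein (0.56, SE 0.12), and Gadd45gip1, a large subunit protein (0.55, SE 0.10). The other 3 did not pass, with Aurkaip1 at 0.16, Ptcd3 at 0.16 and Chchd1, of the small subunit, at -0.36 (adjusted p = 0.0771). Of 21 tested assembly genes 17 rose and 0 fell (median 0.60), among them Mettl17 (1.23, SE 0.18) and Rbfa (0.90, SE 0.13), which act in small subunit maturation, the RNase gene Ybey (0.85) and Mpv17l2 (0.77). Of 16 translation factors 11 rose and 1 fell (median 0.50). Tufm, the elongation factor that delivers aminoacyl-tRNA, had 5.59 and 5.91 in MDX_JJ101, against 4.77 and 4.81 in MDX_tap, and rose by 0.96 (SE 0.14). Its exchange factor Tsfm rose by 0.90, the membrane insertase gene Oxa1l by 0.70 and the recycling factor Gfm2 by 0.59, whereas the initiation factor Mtif2, named after its value was seen, fell (-0.41).

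The enzymes that charge mitochondrial tRNAs moved in the same direction, with 14 of 18 tested higher in MDX_JJ101 than in MDX_tap, 0 lower and a median of 0.64. Of all genes 19.9% were called higher and 16.1% lower. Vars2 rose by 1.09 (SE 0.11), Aars2 by 1.08 (SE 0.13), Sars2 by 1.05 (SE 0.14) and Cars2 by 1.04 (SE 0.13). Of 18 genes of mitochondrial transcription and RNA processing 10 rose and 0 fell (median 0.43), among them Tbrg4, which stabilises mitochondrial messages (1.35, SE 0.14), the nuclease gene Elac2 (0.94), the helicase gene Supv3l1 (0.93) and the RNA polymerase gene Polrmt (0.91). Of 10 regulators of mitochondrial biogenesis 3 rose (30%) and 1 fell (10%), against 19.9% and 16.1% of all genes, with a median of 0.25. The coactivators Ppargc1b (0.70) and Ppargc1a (0.68) and their partner receptor Esrra (0.67) were higher, and the transcription factor Yy1 was lower (-0.34). Of 27 nuclear-encoded subunits of the respiratory complexes 16 rose and 0 fell (median 0.39), with Uqcrc1 at 1.13, Ndufs7 at 0.83, Cyc1 at 0.75 and Sdhc at 0.68. Of 25 proteins of the cytosolic ribosome 0 rose and 9 fell (median -0.16), Rpl22 by the most (-0.77, SE 0.16), with Rps18 at -0.59, Rpl30 at -0.52 and Rpl5 at -0.50. The difference between the mitochondrial and cytosolic lists was not tested.

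In MDX_tap against B10_tap, 0 genes of these 8 lists passed by limma in either direction. At an unadjusted p under 0.05, where 8.64% of all genes were higher and 12.4% lower, the counts of higher and lower genes were 0 and 5 of 21 for assembly and 0 and 9 of 27 for the respiratory complexes. They were 0 and 6 of 18 for transcription and RNA processing, 0 and 3 of 16 for the translation factors and 1 and 2 of 18 for the charging enzymes. The regulators had 2 higher and 0 lower of 10, the cytosolic ribosome 1 and 0 of 25, and the ribosome proteins named otherwise 0 and 0 of 5. The median difference was -0.16 for the assembly genes, -0.21 for the respiratory genes, -0.13 for transcription and RNA processing, -0.15 for the translation factors, -0.16 for the charging enzymes, 0.05 for the regulators, 0.10 for the cytosolic ribosome and -0.16 for the proteins named otherwise. In MDX_JJ101 against B10_tap, where 16.2% of all genes passed as higher and 17.4% as lower, 11 of 21 assembly genes were higher and 0 lower. The counts were 7 and 1 of 16 for the translation factors, 13 and 0 of 18 for the charging enzymes and 9 and 1 of 18 for transcription and processing. They were 5 and 0 of 10 for the regulators, 7 and 1 of 27 for the respiratory complexes and 0 and 3 of 25 for the cytosolic ribosome. Of the 5 ribosome proteins named otherwise 2 were higher and 1 lower, the last being Chchd1 (-0.57, SE 0.12), chosen here after its value was seen. Chchd1 did not pass without MDX_JJ101 replicate 2 or without either B10_tap array.

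**Figure D4:**
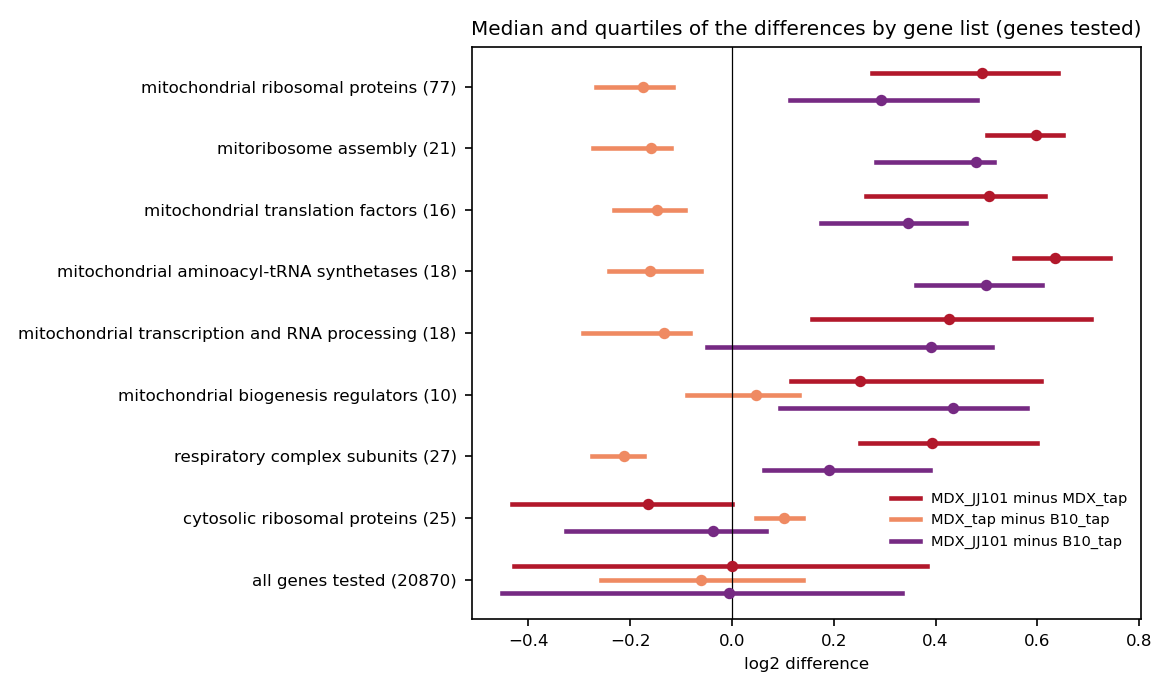
Median (point) and quartiles (bar) of the fitted log2 differences in each gene list, with the number of genes tested in brackets, for the 3 comparisons in colour. For MDX_JJ101 minus MDX_tap the median lies at 0.49 for the mitochondrial ribosomal proteins and at 0.64 for the charging enzymes, at -0.16 for the cytosolic ribosomal proteins and near 0 for all genes.

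For 22 of the 77 genes a second probe was measured, and the values above are those of the brighter probe. The calls in this paragraph come from a separate limma fit over the kept probes, so some differ from those above. The brighter Mrpl39 probe, called above in MDX_JJ101 against MDX_tap, had an adjusted p of 0.0555 here. In MDX_JJ101 against B10_tap the brighter probes of Mrps17 (0.0521) and Mrps26 (0.0571) were likewise called in the fit over genes alone. In MDX_JJ101 against MDX_tap the probes of 4 genes had opposite signs (Mrpl41, Mrpl47, Mrpl50 and Mrps25), and in none of these 4 were both probes called. In 11 of the 22 genes both probes were called higher. The brighter Mrpl41 probe gave 0.11, whereas the other gave -0.48 with an adjusted p of 0.0319, so no direction is given for Mrpl41. The median absolute gap between the probes of a gene was 0.20. In MDX_tap against B10_tap the probes of Mrpl15, Mrps14, Mrps18b and Mrps25 disagreed in sign, with 0.03 and -0.39 for Mrps18b. In MDX_JJ101 against B10_tap those of Mrpl27 and Mrps25 did, and both probes were called higher in 6 genes. In that comparison the dimmer probe, which the count of 0 lower genes leaves out, was called lower for 3 genes: Mrps33 (-0.78, adjusted p = 0.0203), Mrpl41 (-0.64, adjusted p = 0.0198) and Mrpl50 (-0.40, adjusted p = 0.0373).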

How the data were processed

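Total RNA of muscle was measured on 6 single-dye Agilent arrays (3 groups of 2, from the labels). Per the submitters' processing notes, the authors used Agilent Feature Extraction (version 11.5.1.1). The deposited processed signal is an intensity, background-subtracted and detrended per the file headers; other deposited columns are 0 or 1 flags (unit: other). The deposited series table is on the log2 scale by its values and served as an alternative.

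From these, log2 intensity minus the 75th percentile of the array over non-control spots was computed. Outlier spots were dropped, spots of a probe averaged, probes kept if well above background on both arrays of a group (27260 of 55681), and the brightest probe of a gene used. The deposited files hold no mean signal, so the normexp alternative used the median spot signal with an offset of 50. Symbols came from RefSeq accessions (27656 probes) of assembly GRCm38.p6. Where a group was not above background, folds are bounds against the lowest signals that were.

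A single limma fit (version 3.58.1, R 4.3.3) covered the 3 groups (3 residual and 2.21 prior degrees of freedom, two-sided, Benjamini-Hochberg over 20870 genes). Precision is limited by the number of arrays. The members, lists and named-gene rule were chosen with earlier results of these data known. The rule names the 8 genes that rose most and the 8 that fell most among those called without overlap. Where fewer than 5 were called in a direction, it names the 5 with the smallest p. It also names Mrpl12, Mrps12, Mrps18a, Mrps18b, Mrps18c, Mrps30, Mrpl58 and Mrps36, and up to 4 genes of each list by p. Not every marker gene so named is printed.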

Additional observations from a re-analysis of the deposited data

How the results depend on the processing

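Alternatives were run for normalization, scaling, filter, probes, samples, blocks and left-out arrays. In MDX_JJ101 against MDX_tap the count of higher genes (46) was 0 with spike-in scaling, 25 with the compared groups alone, 0 with slide column as a block, and between 0 and 38 with an array left out (0 without MDX_tap replicate 2, 7 without MDX_tap replicate 1, 25 without either B10_tap array, 29 without MDX_JJ101 replicate 2). Among the lower ones, 2 passed with normexp and 2 with the authors' table. The median (0.49) was 0.275 with normexp and with the authors' table and 0.058 with spike-in scaling. The smallest adjusted p of the 77 was 0.205 with spike-in scaling and 0.0577 with the column block, where 0 of all genes passed. The gap between the median of the 77 genes and that of all genes, 0.49 in the reported fit and unable to move with spike-in scaling, was 0.293 with normexp, 0.311 with the authors' table and 0.233 with no filter.

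In MDX_JJ101 against B10_tap the count of higher genes (29) was 18 with normexp, 16 with the authors' table, 0 with spike-in scaling and between 0 and 20 with an array left out (0 without either B10_tap array, 11 without MDX_JJ101 replicate 2, 18 without MDX_JJ101 replicate 1). Genes lower (0) were 6 with normexp, 5 with the authors' table, 1 with median centring, 3 with the filter on all 6 arrays, 2 with probes averaged and 0 to 1 with an array left out. The median (0.29) was 0.078, 0.080 and -0.17 with normexp, the authors' table and spike-in scaling. In MDX_tap against B10_tap, 0 genes passed under every alternative run, with medians between -0.14 and -0.22. A group left with 1 array is assumed to vary like the others, and removing an array also removes a residual degree of freedom. Calls over all genes fell as well when an MDX_tap array, a B10_tap array or MDX_JJ101 replicate 2 was left out of MDX_JJ101 against MDX_tap. The same held when any array was left out of MDX_JJ101 against B10_tap. Causes were otherwise not tested.

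Signs turned for Ptcd3 (-0.00829 with normexp, -0.011 with the authors' table, -0.27 with spike-in scaling), Mrps36 (-0.022) and Aurkaip1 (-0.28) with spike-in scaling, Mrpl33 (-0.30 to 0.020 with an array left out) and Mrps22 (-0.045 to 0.026), all in MDX_JJ101 against MDX_tap. In MDX_tap against B10_tap Mrps18b gave -0.00284 with normexp, -0.00288 with the authors' table, -0.18 with probes averaged and -0.068 to 0.124 with an array left out. In MDX_JJ101 against B10_tap with spike-in scaling Mrpl12, Mrps30 and Mrpl58 gave -0.12 and Mrps36 -0.21.

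Replicate numbers are shared between groups, but the labels tie them to no animal or batch. The deviations of same-numbered arrays correlated at 0.16 (MDX_JJ101 and MDX_tap), -0.06 (MDX_JJ101 and B10_tap) and -0.03 (MDX_tap and B10_tap). With a replicate block 39, 0 and 22 genes were higher in the 3 comparisons in the order above (MDX_JJ101 over MDX_tap, MDX_tap over B10_tap, MDX_JJ101 over B10_tap). The shares of all genes were 16.7%, 0% and 12.9%. Weak signal limits Mrpl21 alone of the 78 genes.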
